A study of Vitis vinifera with 60 samples.

Results

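The 68 genes described here were switched on when grape berries softened and were still at a like level at harvest. RNA had been sequenced from the pericarp of 5 white-skinned grapevine cultivars (Vitis vinifera). These were Garganega, Glera, Moscato bianco, Passerina and Vermentino, in the order used for values throughout. Pea stands for pea-sized berries, Touch for berries that begin to touch their neighbours, Soft for softened berries and Harv for harvest-ripe ones. The 20 combinations had 3 libraries each. The labels name no treatment, all vines stood in 1 experimental vineyard in the same season, and the tissue was the whole berry with its seeds removed. Values are FPKM, which are fragments scaled to transcript length and to the mapped fragments of a library, and each of the 20 columns is the authors' mean for 1 cultivar at 1 stage.

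Members were chosen by their stage means on the log2(FPKM + 1) scale, averaged over the 5 cultivars. A member was at least 3 higher at Soft than at Touch, which is 8-fold on that scale. Its Harv and Soft means were less than 1 apart, and so were its Touch and Pea means. A row was to be left out if it was listed at exactly 0 beside a median of at least 1000 FPKM in the other cultivars of that stage, and 0 rows were. Of 29287 rows of the table, 139 had the step at softening, 102 of these were also level from Pea to Touch, and 68 (0.232% of all rows) were members. All 68 reached 1 FPKM in at least 1 column and so were among the 20833 genes tested below. Because the rule used every change between stages, the course of the members over the stages is a description and carries no test. Differences between cultivars were not used by the rule, and these were tested.

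Softening marks the onset of ripening in the grape berry, the point also called véraison. The berry then loses firmness, takes up sugar, breaks down malic acid and enters its last phase of growth, while photosynthesis in the green skin declines. Gene expression in the pericarp is known to be reorganised at this point, with some genes active only briefly and others throughout ripening. None of the 29971 identifiers of the table is paired with a gene name in the sources used here, so members are given by identifier and no role is stated for any of them. For the same reason the labelled tissue could not be checked against marker genes.

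Most members went from low to moderate or high levels between Touch and Soft. The median over members of the mean FPKM was 2.07 at Pea and 2.99 at Touch, then 90.5 at Soft and 94.3 at Harv. At Pea 25 members and at Touch 21 members had a mean under 1 FPKM, and 0 did at either ripe stage. A mean of at least 100 FPKM was reached by 4 members at Pea, 5 at Touch, 32 at Soft and 33 at Harv. The softening step had a median of 4.03 on the log2 scale, from 3.08 to 9.33. It was under 4 in 32 members, at least 5 in 15 and at least 6 in 11. In bulk tissue, fewer cells of a type and less RNA per cell cannot be told apart, and the same holds for more of either. The median of all tested genes moved by −0.27 to −0.35 (log2) from Touch to Soft, depending on the cultivar, so the members' steps stand against a small shift the other way.

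Most members were separated without overlap between green and ripe berries. In 63 of the 68 every cultivar's value at Soft lay above every cultivar's value at Touch. Over all tested genes this held for 4.18%, a contrast that the rule used, so nothing is read from the difference. In 63 members every ripe value also lay above every green value, against 2.5% of tested genes in the same contrast. Of the 1360 values of the members, 10 were listed at exactly 0, of which 6 at Pea, 4 at Touch and 0 at the ripe stages.

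**Figure D1:**
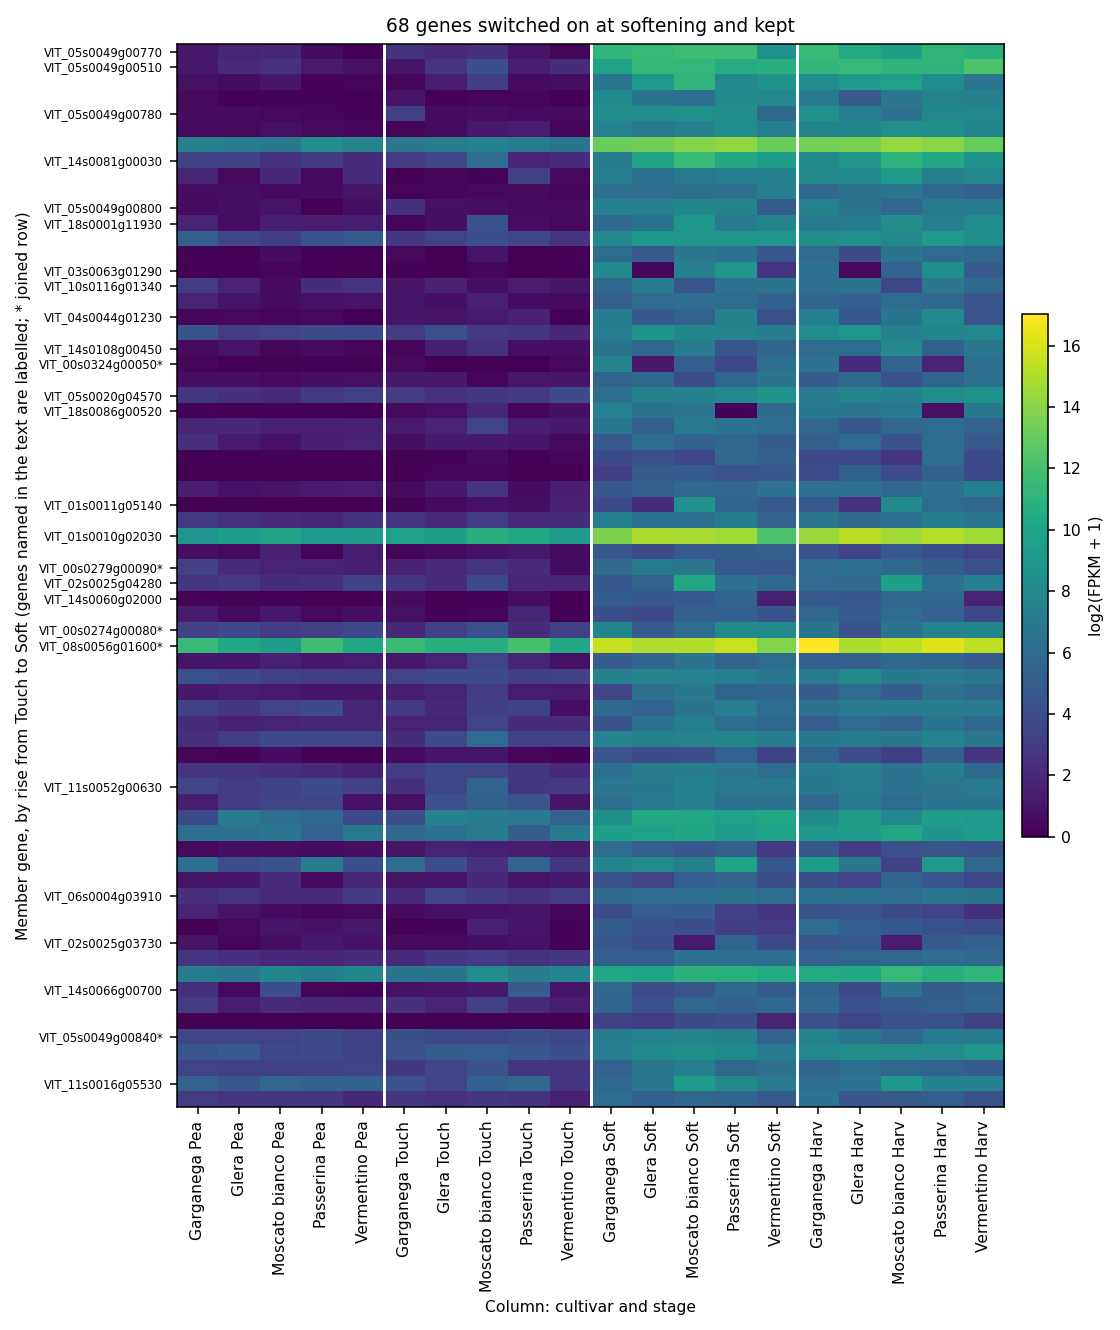
Heat map of log2(FPKM + 1) for the 68 members (rows, ordered by the step from Touch to Soft) in the 20 columns of the table (4 stages of 5 cultivars, colour scale at the right). The Pea and Touch columns are dark in nearly all rows and the Soft and Harv columns bright, with single dark cells where a member was low in ripe berries of 1 cultivar.

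The largest steps belonged to a pair of genes whose identifiers place them on the same scaffold. VIT_05s0049g00770 stood at 4.75, 3.16, 3.84, 0.851 and 0.197 FPKM at Touch in Garganega, Glera, Moscato bianco, Passerina and Vermentino. At Soft it stood at 2368.7, 2684.7, 3347.9, 3381.1 and 397 FPKM in the same order. The 2 stages did not overlap, and Vermentino was the lowest cultivar at both. Its mean went from 2.56 ± 1.95 to 2435.8 ± 1219.7 FPKM (SD, n = 5 cultivars), a step of 9.33 on the log2 scale. At Harv the mean was 1855.3 ± 835.9 FPKM (SD, n = 5 cultivars). VIT_05s0049g00510 stood at 0.966, 5.03, 16.9, 1.53 and 3.72 FPKM at Touch and at 956, 2538.6, 2468.7, 1479.8 and 1625.0 FPKM at Soft, with Garganega lowest at both stages. At Harv it ranged from 2168.9 FPKM in Passerina to 4938.5 FPKM in Vermentino, and its step was 8.47.

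The most abundant members were already well expressed in green berries. The row that joins VIT_08s0056g01600 and VIT_08s0056g01610 stood at 3167.7, 1654.2, 1548.9, 4263.5 and 1192.9 FPKM at Touch in Garganega, Glera, Moscato bianco, Passerina and Vermentino. At Soft its values were 46780.3, 32737.9, 33588.8, 50384.3 and 15257.9 FPKM, and at Harv 133695, 30990.4, 43041.3, 75395.6 and 42551.1 FPKM. Every Soft value exceeded every Touch value, and Garganega stood highest at Harv. The means were 35749.8 ± 13869.9 FPKM at Soft and 65134.7 ± 41742.6 FPKM at Harv (SD, n = 5 cultivars), with a step of 3.97 at softening. VIT_01s0010g02030 stood at 856, 799.8, 1610.6, 1168.4 and 631 FPKM at Touch and at 12917.3, 30801.5, 29575.0, 25581.2 and 4812.5 FPKM at Soft. Vermentino was the lowest cultivar at Soft and had reached 26550.0 FPKM at Harv, within the range of 22404.2 to 39570.5 FPKM of all 5. VIT_16s0022g00960, the next by FPKM in ripe berries and named for that after its values were seen, ranged from 97.3 to 179 FPKM at Touch and from 9133.1 to 18585.6 FPKM at Soft.

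Those 3 rows carried most of the RNA of the members. Together the 68 members made up 0.428% ± 0.147 of a column's summed FPKM at Pea and 0.481% ± 0.18 at Touch, then 8.72% ± 2.72 at Soft and 12.8% ± 3.05 at Harv (SD, n = 5 cultivars). The lowest share at Soft was 4.89% in Vermentino and the highest 12.3% in Passerina, and at Harv the range ran from 9.25% in Vermentino to 17.1% in Garganega. Without the 3 most abundant members, the other members made up 1.63% ± 0.478 at Soft and 1.59% ± 0.226 at Harv (SD, n = 5 cultivars). Some abundant genes outside the members were listed at 0 in single columns, which changes the sum that these shares refer to.

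Several members lay close to the limits of the rule. The smallest steps inside were 3.08 in VIT_10s0003g04950 and 3.09 in VIT_11s0016g05530, and the nearest outside were 2.96 in VIT_15s0046g01920 and 2.93 in VIT_06s0004g01510. For the difference Harv minus Soft, VIT_04s0023g01110 at −0.97 and VIT_13s0067g02300 at 0.97 were just inside, while VIT_02s0033g00390 at 1.03 and VIT_02s0033g00380 at 1.06 were just outside. For Touch minus Pea, VIT_05s0077g01650 at −0.98 and VIT_04s0023g01110 at 0.94 were inside, and VIT_05s0049g02240 at 1.08 and VIT_08s0056g01240 at 1.10 were outside.

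Genes with the same step but another course after it were fewer. With an equal step at softening and level green stages, 22 genes were at least 1 higher at Harv than at Soft, and 10 were at least 1 lower. The 2 remaining rows of the 102 were left out of these groups because of a listed 0 beside a median of at least 1000 FPKM. The 22 genes that went on upward had medians of the mean FPKM of 0.942 at Touch, 57.9 at Soft and 182 at Harv, and a median step of 4.36. The 10 transient genes had medians of 3.74, 78.0 and 22.0 FPKM at the same stages, and a median step of 3.71. The members, at 2.99, 90.5 and 94.3 FPKM, lay between these at Touch and above both at Soft. By the cultivar test described further on, 6 of the 22 and 2 of the 10 differed between cultivars in ripe berries, against 21 of the 68 members and 11.7% of tested genes. The 3 groups are cut from a continuous range of Harv minus Soft by the rule itself, so no test was made between them.

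The softening step was present in most cultivars for most members. A step of at least 3 was seen in 61 members in Garganega (0.902% of tested genes), 56 in Glera (0.806%), 58 in Moscato bianco (0.802%), 60 in Passerina (0.936%) and 54 in Vermentino (0.773%). The rule used the mean of these contrasts, so the shares of all genes are given for scale and nothing is read from them. All 5 cultivars passed that limit in 33 members (0.302% of tested genes), 4 cultivars in 22, 3 in 10 and 2 in 3. The median step of the members lay between 4.06 in Glera and Moscato bianco and 4.39 in Passerina. The smallest single step was −0.17, in Passerina, and belonged to VIT_18s0086g00520, which stayed under 1 FPKM in that cultivar. With the columns scaled to equal medians, 46 members had the step in all 5 cultivars, and 39 did after quantile normalization.

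The level from Soft to Harv was held in the mean but less evenly within cultivars. A member's values at the 2 stages were less than 1 apart in 65 of 68 members in Passerina (95.6% of tested genes), 58 in Glera (88.1%), 53 in Garganega (88.4%), 47 in Moscato bianco (88.2%) and 44 in Vermentino (86.2%). This was so in all 5 cultivars in 23 members, against 74.8% of tested genes. The tested genes include low ones, which can change less on this scale, so these shares are not matched to the members in level. In Vermentino 18 members were at least 1 higher at Harv (5.01% of tested genes) and 6 at least 1 lower (8.78%). In Moscato bianco the split was the other way, with 5 higher (3.75%) and 16 lower (8.03%). Garganega had 9 higher (4.08%) and 6 lower (7.48%), Glera 4 (3.32%) and 6 (8.62%), and Passerina 1 (1.66%) and 2 (2.73%). After scaling to equal medians or quantile normalization, the lower members were 13 in Moscato bianco and only 2 or 3 in Garganega and in Glera, and the higher ones 16 to 20 in Vermentino. The rule kept the mean over the cultivars within 1 of 0, which limits how far the cultivars together could move but not any single one. With 1 value per cultivar and stage, a difference in course between cultivars could not be tested. The median change of the members from Soft to Harv was 0.29 in Garganega, 0.00 in Glera, −0.40 in Moscato bianco, −0.09 in Passerina and 0.11 in Vermentino.

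In 9 members a cultivar moved up by at least 1 while another moved down by at least 1, as did 0.845% of tested genes. That share is not matched for level either. The clearest case, chosen after its values were seen, was VIT_05s0077g01650, the only member level in just 1 cultivar. At Soft it stood at 227, 295, 152, 970.1 and 24.8 FPKM in Garganega, Glera, Moscato bianco, Passerina and Vermentino, and at Harv at 675, 108, 9.31, 583 and 59.4 FPKM. Garganega and Vermentino were higher at Harv, Glera and Moscato bianco lower, and Passerina was level.

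**Figure D2:**
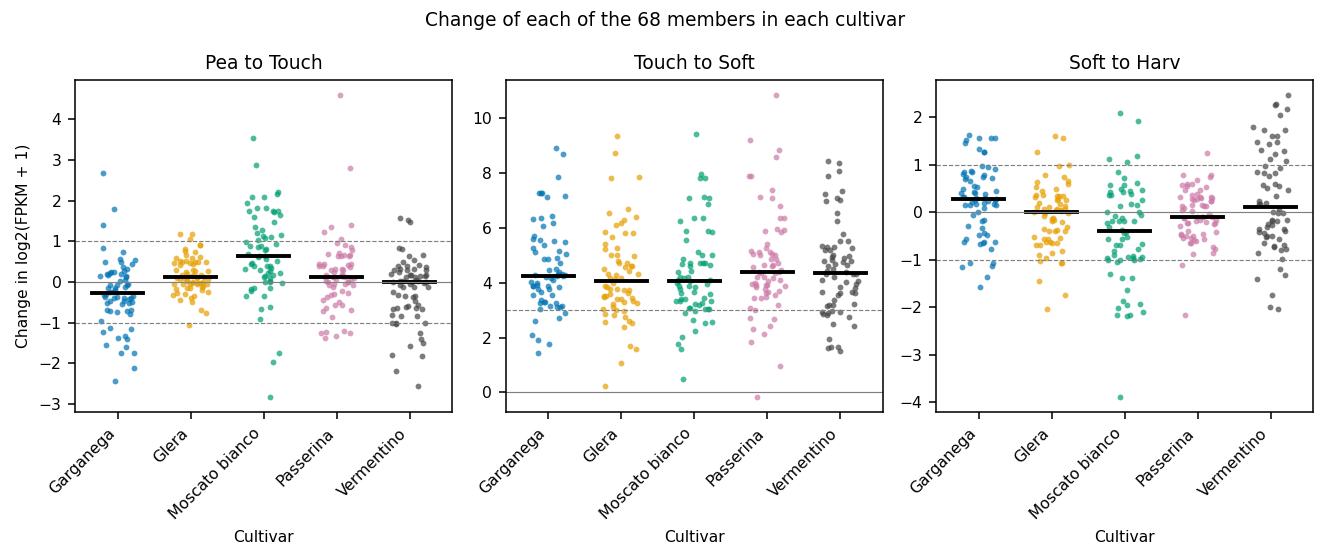
Change in log2(FPKM + 1) of each of the 68 members (points) in each cultivar from Pea to Touch, Touch to Soft and Soft to Harv, with the median as a black bar and dashed lines at the limits used for the mean over cultivars (1 either way, and 3 for the middle panel). Medians of the middle panel lie from 4.06 to 4.39, and in the right panel Vermentino has 18 points at or above 1 and Moscato bianco 16 at or below −1.

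At Touch, the last stage before softening, more members were highest in Moscato bianco than in any other cultivar. There 36 of 68 members had their highest value in Moscato bianco, where 19.4% of tested genes did. Garganega was highest in 7 (23.6% of tested genes), Glera in 9 (16.4%), Passerina in 13 (22.2%) and Vermentino in 3 (18%). The lowest value at Touch was in Vermentino in 30 members (20.3% of tested genes) and in Garganega in 22 (23.1%). The Moscato bianco value lay at least 1 above every other cultivar in 15 members (0.917% of tested genes). The same held in 2 members in Garganega (1.65%), 1 in Glera (0.494%), 2 in Passerina (1.03%) and 0 in Vermentino (0.763%). Under equal medians Moscato bianco was highest in 37 members and after quantile normalization in 41. At Pea Garganega was highest in 21 members (22.7% of tested genes) and Moscato bianco in 15 (18.7%), so the leading cultivar differed between the green stages. Vermentino was the most frequent lowest cultivar at Pea too, in 26 members (17.9% of tested genes). In Moscato bianco the members' median change from Pea to Touch was 0.63, against −0.27 to 0.12 in the other cultivars. Each column is 1 mean, so these orders have no error and no test.

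Single members show how far apart the cultivars could be at Touch; both below were chosen after their values were seen. VIT_14s0066g00700 stood at 28.2 FPKM in Passerina at Touch and at 0.788 to 1.29 FPKM in the other 4 cultivars. At Soft it stood at 56.1 FPKM in Passerina and between 15.2 and 50.7 FPKM elsewhere, and in Passerina Touch minus Soft was −0.97 (log2). VIT_18s0001g11930 stood at 19.1 FPKM in Moscato bianco at Touch and at 0.243 to 0.655 FPKM elsewhere. At Soft its Moscato bianco value, 484 FPKM, was again the highest, over 54.3 to 201 FPKM in the others. The fixed rule for the members highest at Touch relative to Soft picked VIT_18s0086g00520 in Passerina and VIT_03s0063g01290 in Glera, both of which stayed under 1 FPKM in that cultivar at all stages and are described below.

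In ripe berries the order was broader. At Soft 25 members were highest in Moscato bianco (18.6% of tested genes) and 18 in Passerina (19.7%), while 24 were lowest in Vermentino (21.5%) and 20 in Garganega (17.8%). At Harv 22 were highest in Moscato bianco (17.7%) and 17 in Passerina (21.5%), while 20 were lowest in Vermentino (19.1%) and 17 in Moscato bianco (25.1%). The members' median distance from the mean of the 5 cultivars was 0.46 in Moscato bianco and −0.42 in Vermentino at Touch, and 0.45 and −0.23 at Soft. At Harv it was −0.05 in Moscato bianco and 0.28 in Passerina, on the log2 scale.

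**Figure D3:**
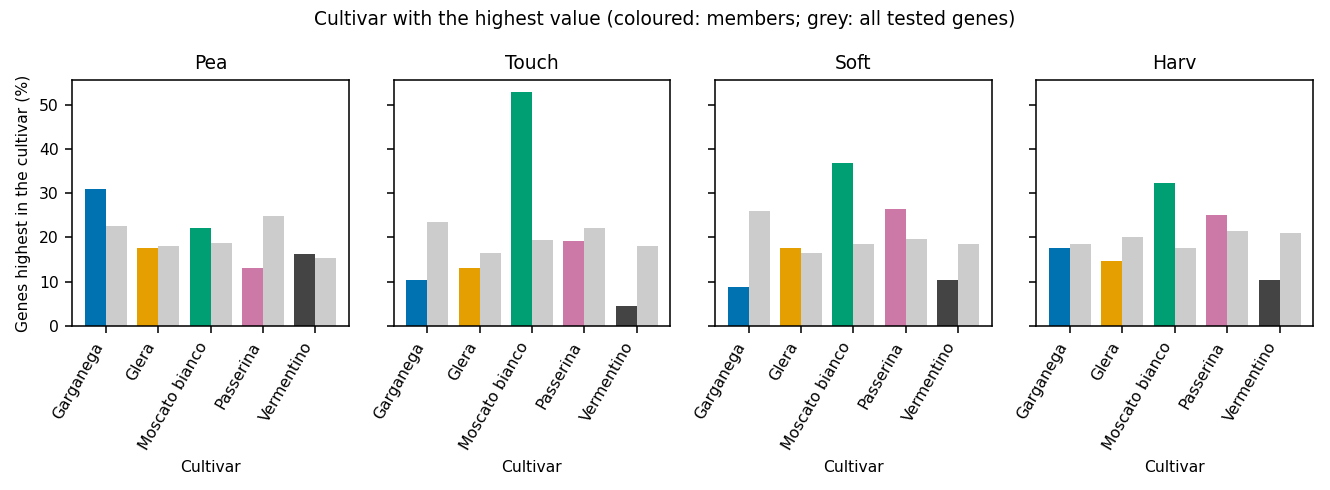
Share of genes (%) with their highest value in each cultivar at the 4 stages, for the 68 members (coloured bars) and for all 20833 tested genes (grey bars). Moscato bianco holds 52.9% of the members at Touch, where it holds 19.4% of tested genes.

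Differences between cultivars in ripe berries were tested with limma, taking a cultivar's Soft and Harv columns as its 2 values. A call needed a Benjamini-Hochberg adjusted p under 0.05 over all tested genes, and the highest and lowest cultivar at least 1 apart on the log2 scale. Of the 68 members 21 were called, against 11.7% of tested genes. The unadjusted p was under 0.05 in 36 members and in 35.4% of tested genes. The distance between the highest and lowest cultivar had a median of 1.63 in the members and 0.57 over all tested genes. It was at least 1 in 57 members (24.5% of tested genes). It was at least 2 in 24 and at least 4 in 7, limits for which no share of tested genes was computed. Tested genes needed only 1 FPKM in 1 column, and low genes can spread less on this scale. The rule makes members well expressed in ripe berries, so the shares given for ripe berries, here and below, are not matched for level. Without Glera 12 members were called, and 6.92% of tested genes. The pair with the largest steps and the pair with the highest FPKM were not called, with adjusted p from 0.529 to 0.915 (limma). With all 20 columns fitted, the most abundant row, of VIT_08s0056g01600 and VIT_08s0056g01610, was called (adjusted p = 0.00116, and up to 1.0 over the other alternatives). In green berries, where the members were low, 12 were called by the same test, against 18% of tested genes. The 47 members not called in ripe berries were not shown to be alike, since each test rested on 4 residual degrees of freedom.

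Some members were nearly level over the cultivars. VIT_11s0052g00630, with the narrowest distance of 0.31, stood at 103, 119, 177, 123 and 136 FPKM at Soft and at 115, 153, 88.5, 108 and 122 FPKM at Harv. VIT_06s0004g03910, with 0.48, stood at 57.6, 65.7, 73.8, 84.1 and 63.7 FPKM at Soft and at 76.7, 79.0, 71.4, 103 and 93.9 FPKM at Harv. In VIT_11s0052g00630 no cultivar was highest or lowest at both stages, while in VIT_06s0004g03910 Passerina was highest at both. The 5 values follow the order of cultivars given at the start, here and below.

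A few members stayed low in ripe berries of 1 cultivar. With a limit of 5 FPKM at both Soft and Harv, 6 members fell under it in 1 cultivar: 3 in Glera, and 1 each in Moscato bianco, Passerina and Vermentino. The same count was not made over all tested genes, so nothing is read from the number or from its split by cultivar. VIT_03s0063g01290 had the widest distance of all members, 8.37. At Soft it stood at 254, 0.213, 166, 469.7 and 4.78 FPKM and at Harv at 84.9, 0.261, 40.2, 353 and 27.3 FPKM. Glera stayed under 1 FPKM, and Passerina was highest at both stages. In the limma fit the cultivars differed with an adjusted p of 0.0154, and the call was lost without Glera or without Passerina, with an adjusted p of up to 0.127. The contrast of Glera with the other 4 was −6.18 (SE 0.78, adjusted p = 0.0122, limma), which became 0.0515 without Passerina. Passerina lay 4.28 above the others (SE 0.78, adjusted p = 0.0323, limma), which became 0.155 without Glera.

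In Passerina VIT_18s0086g00520 stayed under 1 FPKM. This gene stood at 186, 95.2, 100.4, 0.101 and 57.8 FPKM at Soft and at 116, 103, 129, 0.674 and 111 FPKM at Harv. The 4 other cultivars did not overlap with Passerina at either stage. The Passerina contrast with the other 4 was −6.32 in log2 units (SE 0.28, adjusted p = 0.000585, limma), and the call held when each other cultivar was left out, with an adjusted p of at most 0.00586. The gene was also called higher in Garganega (adjusted p = 0.0141), Moscato bianco (adjusted p = 0.0246) and Glera (adjusted p = 0.044). None of these 3 calls held without Passerina, where the adjusted p was 0.308, 0.865 and 0.822.

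Vermentino had the lowest level of VIT_14s0060g02000, which stood at 31.5, 24.8, 26.5, 45.2 and 1.87 FPKM at Soft and at 27.8, 25.3, 48.3, 50.4 and 2.23 FPKM at Harv. Vermentino lay at −3.51 against the other 4 (SE 0.19, adjusted p = 0.000856, limma). With each other cultivar left out, the adjusted p stayed at or under 0.00726. From Touch to Soft the gene still went from 0.0168 to 1.87 FPKM in Vermentino. Moscato bianco was lowest in VIT_02s0025g03730, which stood at 23.2, 17.0, 1.34, 43.4 and 12.6 FPKM at Soft and at 22.3, 27.1, 1.59, 30.9 and 35.7 FPKM at Harv. Its Moscato bianco contrast was −3.39 (SE 0.34, adjusted p = 0.00609, limma), with an adjusted p of at most 0.02 when another cultivar was left out.

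The remaining 2 of the 6 were low in Glera. VIT_01s0011g05140 stood at 14.4, 3.65, 392, 45.9 and 27.0 FPKM at Soft and at 26.1, 4.31, 289, 63.7 and 48.5 FPKM at Harv. Moscato bianco exceeded every other cultivar at both stages, by 3.98 against their mean (SE 0.25, adjusted p = 0.0014, limma), and the adjusted p was at most 0.0119 without any 1 of the others. Glera was called lower (−3.62, adjusted p = 0.00208, limma), although its own step from Touch to Soft was 1.69. The row that joins VIT_00s0324g00050 and VIT_00s0324g00060 stood at 196, 1.25, 35.5, 12.8 and 72.7 FPKM at Soft and at 88.0, 3.4, 40.2, 2.10 and 72 FPKM at Harv. Passerina was the lowest at Harv and Glera at Soft. Garganega was called higher (3.09, adjusted p = 0.0352, limma) and Glera lower (−3.65, adjusted p = 0.0225, limma). The Garganega call was lost without Glera (0.0913) and without Moscato bianco (0.058). The Glera call was lost without Garganega (0.0722), Moscato bianco (0.0502) or Vermentino (0.0565). Without Moscato bianco the Garganega contrast was 3.53 and the Glera contrast −3.67, neither of them smaller than in the full fit, which has more columns.

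**Figure D4:**
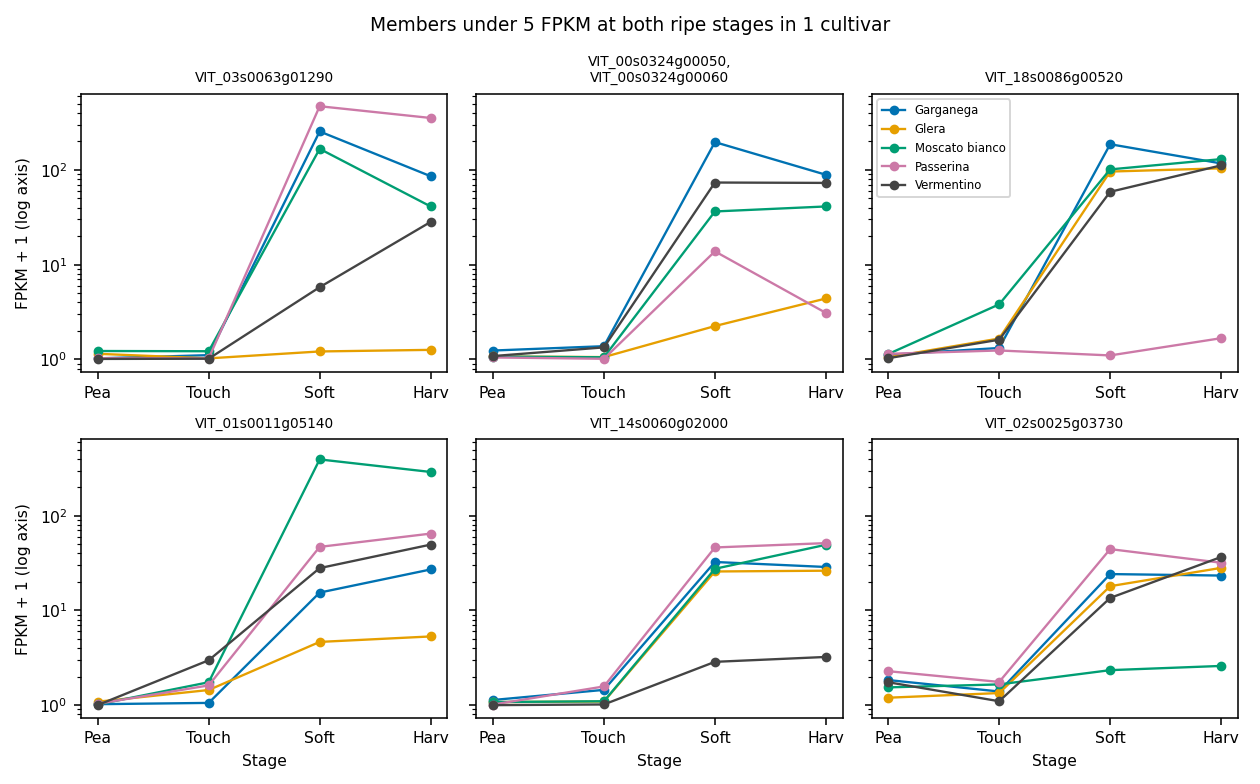
FPKM + 1 (log axis) over the 4 stages in each cultivar (coloured lines, 1 authors' mean per point) for the 6 members under 5 FPKM at both ripe stages in 1 cultivar. In each panel 1 cultivar stays under 5 FPKM at Soft and Harv, as does Passerina in VIT_18s0086g00520 and Vermentino in VIT_14s0060g02000.

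Each cultivar was also set against the mean of the other 4. There were 43 calls in 23 members, against 9.13% of tested genes with any such call, and 15 members were called in more than 1 of these contrasts, which share their columns. Without Glera 22 calls were made and without Passerina 27. Such a fit lacks the left-out cultivar's own contrast, so these counts cannot be compared directly with 43. Moscato bianco was higher in 7 members (1.67% of tested genes) and lower in 4 (1.57%). Glera was higher in 2 (1.31%) and lower in 7 (1.39%). Passerina was higher in 5 (1.77%) and lower in 2 (1.28%), Vermentino higher in 3 (1.42%) and lower in 6 (1.68%), and Garganega higher in 4 (1.54%) and lower in 3 (1.18%). Several of these counts changed when 1 other cultivar was left out, a fit with fewer columns, or when all 20 columns were fitted. For single-cultivar calls the refits' shares of all tested genes were not computed, so the changes are not read as particular to the members. Without Glera, 2 members were higher in Garganega, 2 higher in Passerina and 2 lower in Vermentino. Without Passerina, 0 were higher and 4 lower in Glera, and without Garganega or without Vermentino 1 was higher in Glera. Without Moscato bianco, 1 was lower in Passerina and 5 were higher in Vermentino. The Moscato bianco counts ran from 5 to 8 higher and from 3 to 4 lower. With all 20 columns fitted, green stages included, Moscato bianco had 9 higher and 4 lower calls and Vermentino 7 lower, while Glera had 0 lower.

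The other named Moscato bianco differences held in each fit that left out a cultivar. VIT_02s0025g04280 stood at 25.4, 41.5, 1169.1, 84.6 and 52.1 FPKM at Soft and at 62.3, 58.3, 792, 72 and 159.7 FPKM at Harv. Moscato bianco stood far above the rest at both stages, by 3.95 against their mean (SE 0.43, adjusted p = 0.00767, limma), and at most 0.026 without another cultivar. VIT_10s0116g01340 was lower there, at 54.4, 123, 22.5, 86.5 and 93.7 FPKM at Soft and at 76.8, 93.0, 11.1, 104 and 59.4 FPKM at Harv. Its contrast was −2.33 (SE 0.29, adjusted p = 0.0103, limma).

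For Passerina and Vermentino, VIT_04s0044g01230 was called in opposite directions, as it also was for Garganega and Glera. It stood at 145, 24.9, 42.3, 175 and 18.4 FPKM at Soft and at 164, 24.6, 96.9, 266 and 21.1 FPKM at Harv. Passerina was highest and Vermentino lowest at both stages, with contrasts of 2.17 (adjusted p = 0.0067, limma) and −2.07 (adjusted p = 0.00743, limma). VIT_05s0020g04570 was higher in Vermentino, at 75.6, 174, 176, 238 and 414 FPKM at Soft and at 128, 192, 177, 296 and 412 FPKM at Harv, a contrast of 1.27 (SE 0.16, adjusted p = 0.0106, limma). All 3 of these contrasts held when any other cultivar was left out. In VIT_04s0044g01230 Garganega was also called higher (1.57, adjusted p = 0.0186, limma) and Glera lower (−1.67, adjusted p = 0.0149, limma). The Garganega call was lost without Glera (0.0665) or Vermentino (0.0842), and the Glera call without Garganega (0.0604) or Passerina (0.0827). In VIT_05s0020g04570 Garganega was also called lower (−1.30, adjusted p = 0.0107, limma). The joined row of VIT_00s0274g00080 and VIT_00s0274g00090 was higher in Vermentino by 1.49 (adjusted p = 0.0289, limma) but not without Glera (0.179), and Glera itself was lower (−2.70, adjusted p = 0.00559). VIT_14s0108g00450 was lower in Passerina by a contrast of −1.56 (adjusted p = 0.0496, limma), and this call was lost without Glera (0.0851), Moscato bianco (0.145) or Vermentino (0.0636). The contrast was then −1.73, −1.23 and −1.65, so its size shrank only without Moscato bianco.

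In Garganega 2 members stood low beside a high Moscato bianco. VIT_14s0081g00030 stood at 149, 970.9, 2999.1, 1211.6 and 739 FPKM at Soft and at 269, 466, 2022.5, 1111.5 and 425 FPKM at Harv. Garganega was lowest at both stages, with a contrast of −2.34 (adjusted p = 0.0229, limma) that was lost without Moscato bianco (0.0812). VIT_11s0016g05530 stood at 50.5, 100.3, 679, 283 and 121 FPKM at Soft and at 67.3, 90.4, 547, 181 and 182 FPKM at Harv. Its Garganega contrast of −1.83 (adjusted p = 0.0138, limma) was also lost without Moscato bianco (0.0725). Moscato bianco was called higher in both, by 2.18 (adjusted p = 0.0234) and 2.37 (adjusted p = 0.00616). The joined row of VIT_00s0279g00090 and VIT_00s0279g00100 was called higher in Glera by 1.36 (adjusted p = 0.0415, limma), and was not called without Garganega (0.0505), Passerina (0.0788) or Vermentino (0.128). The same row was called lower in Vermentino (−1.53, adjusted p = 0.0258, limma), a call lost without Glera (0.0784).

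The identifiers carry a chromosome number, a scaffold number and an order along the scaffold, read here as printed; the genome build is not given in the sources used here. Members with another member within 10 listed loci on the same scaffold numbered 10 (14.7%), where 3.97% of tested genes had a member that near. They formed 4 runs, 3 of them pairs. By chromosome number, 8 members were on 5 (11.8% of the members, 5.45% of tested genes), and 0 were on 7 or 9. No test was made of these counts.

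The longest run had 4 members, VIT_05s0049g00770, VIT_05s0049g00780, VIT_05s0049g00800 and the joined row of VIT_05s0049g00840 and VIT_05s0049g00850, and was singled out after its values were seen. VIT_05s0049g00780 stood at 319, 333, 368, 343 and 57.7 FPKM at Soft and at 397, 159, 81.9, 244 and 242 FPKM at Harv. VIT_05s0049g00800 stood at 172, 172, 222, 194 and 30.8 FPKM at Soft and at 207, 91.7, 48.4, 128 and 143 FPKM at Harv. The joined row stood at 149, 189.7, 202, 182 and 40.1 FPKM at Soft and at 187, 104, 55.0, 133 and 135 FPKM at Harv. All 4 were lowest in Vermentino at Soft and lowest in Moscato bianco at Harv. From Soft to Harv they changed by 1.73 to 2.26 in Vermentino and by −2.17 to −1.86 in Moscato bianco (log2).

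Over the 10 ripe columns, with each stage centred on its mean, the log2 values of these 4 rows had pairwise correlations of 0.985 to 0.996. The median over all 2278 pairs of members was 0.09, and 14 pairs reached 0.9, of which 7 were among the 9 pairs within runs. These points share their columns and, for near-identical copies, possibly their fragments, which was not tested. The libraries do not record strand, so overlapping and antisense genes can share fragments too. Between the members of the run lay 3 other rows with differences of −1.50 to −0.87 (log2) from Touch to Soft, so the step did not extend over all rows of the stretch. The row next to it, VIT_05s0049g00760, stood at 12734.5 FPKM in Garganega and 6677.4 FPKM in Vermentino at Soft. It was listed at 0 at Soft in the other 3 cultivars and at Harv in all 5.

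**Figure D5:**
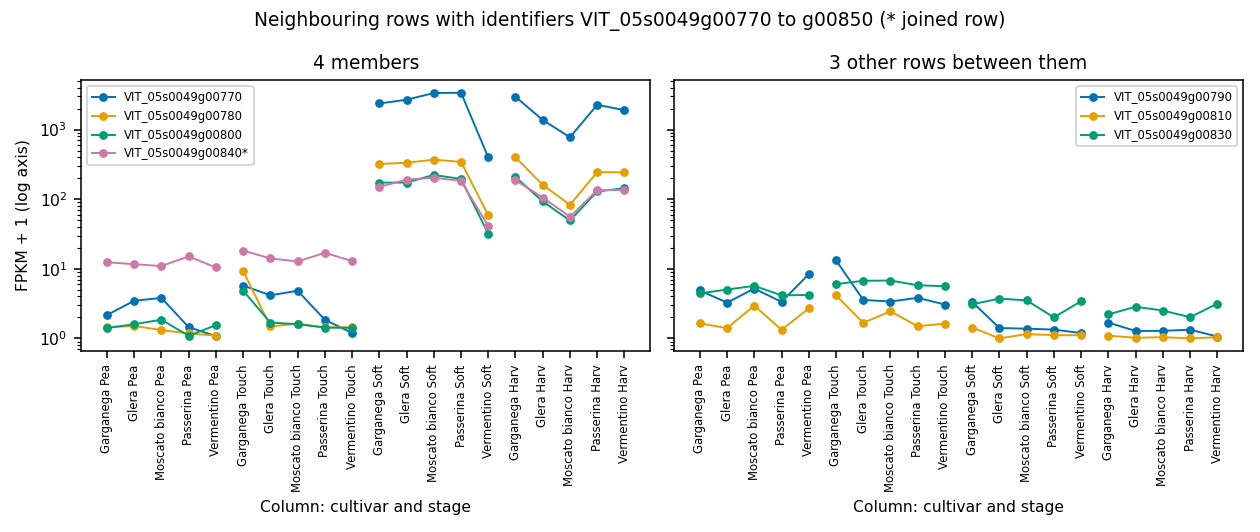
FPKM + 1 (log axis) in the 20 columns for the 4 members of the longest run (left) and for the 3 other rows between them (right), with lines joining the cultivars within a stage. The members move together, with Vermentino low at Soft and Moscato bianco low at Harv, while the rows between them show no step at Soft.

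In the other runs the likeness was uneven. VIT_04s0023g03540 and VIT_04s0023g03550 had a correlation of 0.965 over the same columns, VIT_02s0033g00410 and VIT_02s0033g00450 one of 0.702, and VIT_16s0098g00790 and VIT_16s0098g00800 one of 0.358. Near the second of these pairs, VIT_02s0033g00380 and VIT_02s0033g00390 had steps of 5.84 and 5.50 and missed the rule only through a Harv level slightly more than 1 above Soft.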

How the data were processed

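The authors deposited 1 table of FPKM with 20 columns, each their mean for 1 cultivar at 1 stage per the file headers. The tools listed by the submitters' processing notes are Cufflinks 2.0.2 and TopHat2 2.0.6. What each did, the genome build and the annotation: not given in the sources used here. The table has 29287 rows, of which 608 join several identifiers. The labels list 60 libraries, 3 for each column. Their spread is unknown, since the columns hold means, and so is sequencing depth, so no counting interval is given. Nothing in the labels says that the 3 libraries came from separate plants.

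The members and lists were chosen with earlier results of these data known. Values were taken as log2(FPKM + 1), which understates the fold of low genes. The 20833 genes that reached 1 FPKM in any column were tested with limma 3.58.1 (trend) in R 4.3.3. Cultivar and stage were terms over the 10 Soft and Harv columns, with 4 residual degrees of freedom, and likewise over the Pea and Touch columns. The p-values set cultivar differences against how unevenly the cultivars changed between the 2 stages. Counts and shares were computed in Python 3.11.15. On simulated ripe-berry cultivar differences over 20833 genes, 20% of 100 genes changed 2-fold and 65% of 100 changed 4-fold in 1 cultivar were called, with 1 of 20633 unchanged genes. The changes were planted only in genes well expressed in ripe berries. Far fewer genes were changed than were called in the data (11.7% of tested genes), so these rates need not hold for the tests above.

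Named members were, in each listing, the 2 highest, the 2 with the largest step, the 2 nearest each side of a limit, the 2 widest called and 2 narrowest differences, and 2 in each direction for each cultivar. Others are said to be chosen after seeing their values. A search of 29591 genes of the assembly ASM3070453v1 matched 0 identifiers, so the planned gene families and tissue markers were not analysed here, and no sequence could be given. Neighbouring loci were counted within a scaffold, because the identifiers do not order scaffolds along a chromosome. Alternatives changed the pseudocount, the scaling, the filter, the columns fitted and the cultivars included.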

Additional observations from a re-analysis of the deposited data

Results flagged for a closer look

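Among 64 sets of 5 cultivar values, 12 had a lowest or highest cultivar that stood far from the rest, with a gap to the next value above 0.71 of the set's whole range. For expression values the gap and the range were taken on the log2(FPKM + 1) scale, while the values printed below are FPKM. For independent sets chance gives about 1 in 20, or 3.2 sets. Of the 12, 11 were among 48 sets of named members, which were chosen partly for wide differences. They include the 4 rows of the run on chromosome 5, which were named after their values were seen. Those rows moved together, with correlations of 0.985 to 0.996, so their sets are not separate cases. Nothing is read from 12 against 3.2. Vermentino was far below the others at Soft in all 4 members of the run on chromosome 5: 397 FPKM in VIT_05s0049g00770, 57.7 FPKM in VIT_05s0049g00780, 30.8 FPKM in VIT_05s0049g00800 and 40.1 FPKM in the joined row of VIT_05s0049g00840 and VIT_05s0049g00850. It was also far below at both ripe stages in VIT_14s0060g02000, with 1.87 FPKM (Soft) and 2.23 FPKM (Harv), and far above at Harv in VIT_05s0049g00510, at 4938.5 FPKM. Passerina was far below in VIT_18s0086g00520, with 0.101 FPKM (Soft) and 0.674 FPKM (Harv). Moscato bianco was far below at Harv in VIT_02s0025g03730, at 1.59 FPKM, and in VIT_10s0116g01340, at 11.1 FPKM. Moscato bianco also stood apart in its number of members at least 1 lower at Harv than at Soft, which was 16 against at most 6 in any other cultivar. Over all tested genes it did not stand apart, with 8.03% against 2.73% (Passerina) to 8.78% (Vermentino) in the others.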

How the results depend on the processing

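The number of members, 68, ran from 46 with a pseudocount of 5 (38 shared) to 87 with the columns scaled to equal medians (66 shared), and from 68 to 75 with 1 cultivar left out (60 to 63 shared). The 21 members called for cultivar differences in ripe berries were 17 to 26 under other settings, and 26 with all 20 columns fitted, of which 12 were among the 21. With 1 cultivar left out they were 12 (without Glera) to 20, while the share of all genes called ranged over all settings from 5.08% to 16.6%. The 43 calls of single cultivars were 28 with all 20 columns. With 1 cultivar left out they were 22 (without Glera) to 32, and that cultivar's own contrast is then absent from the count. The cause was not tested. Members with another within 30 loci were 16, in place of 10 within 10 loci, as a wider window must give. The contrast of Glera in VIT_18s0086g00520 was 1.44 and ran from −0.15 to 2.10 with 1 cultivar left out. It reversed without Passerina (limma, adjusted p = 0.822, and 0.0109 to 0.822 over all alternatives), because the mean it is set against no longer held Passerina's low value. Among the refits for named members, 262 differences over all cultivars stayed on their side of the threshold, 21 lost their call and 5 gained one. For single cultivars 181 stayed, 38 lost the call and 1 reversed. The 9 contrasts said to hold were called in each of 11 alternatives, with an adjusted p of at most 0.0436 (limma). The numbers of members highest at Touch, higher or lower at Harv and with the step in all 5 cultivars were recomputed by scaling after the data had been seen. Leaving out single libraries, gene families and tissue markers were not run, for want of library values and names. No paired analysis was possible because the columns hold means without replicate numbers. Depth limits cannot be stated without counts.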
